A study of Mus musculus with 8 samples.

Results

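The genes described here are 42 genes that cells use to copy their DNA and to divide, taken from a count table of 54532 genes by their Ensembl identifiers, which were paired with gene symbols through the GENCODE annotation of the mouse build mm10. Each of the 42 symbols had 1 identifier. By the step of the cycle in which they act, 18 serve DNA replication (S phase) and 24 serve mitosis. They were proposed for description because Cenpe was higher in knock-in libraries, so the knock-in against wild-type comparison of these genes chose them and is given as a description without a test. The question was whether S-phase and mitosis genes moved together over the libraries.

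The libraries are RNA sequencing of microglia, the brain's and spinal cord's own macrophages, sorted from the cords of 8 female mice, 1 library per mouse. There were 4 wild-type (WT) mice, numbered 503, 504, 506 and 527, and 4 mice with the Cd11b-P2X4mCherryIN knock-in (KI), numbered 513, 526, 528 and 549. P2X4 is a cation channel opened by extracellular ATP, CD11b is a surface protein of myeloid cells and mCherry is a red fluorescent protein. The labels give no age, treatment, disease state or batch, and do not say how the allele was built or whether the mice were littermates. Cells were sorted as viable (SYTOX-), CD11b+, CD45 low and Ly6C-.

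A cell licenses its replication origins with the MCM helicase, unwinds and copies the DNA with a fork machinery fed by nucleotide-making enzymes, and then condenses, attaches and separates its chromosomes under the control of cyclins, kinases, kinetochores and a checkpoint. Transcription of the first set is driven largely by E2F factors in late G1 and S phase, and that of the second by the MuvB complex with B-MYB and FOXM1 in G2 and M phase. Microglia of the adult central nervous system divide rarely at rest and renew themselves, and can divide strongly after injury. In a bulk library, more cycling cells and more RNA of these genes per cell cannot be told apart.

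The libraries held between 45167483 and 54049801 reads on genes, and a level is stated in CPM, the count relative to library size after TMM scaling between libraries. A count of 0 allows up to 3 fragments, or 6 reads as both reads of a pair can be counted, which correspond to 0.11 to 0.134 CPM. All 42 genes passed the filter on low counts, as did 17291 genes in all. No gene of the 17291 had an adjusted p under 0.05 in the edgeR quasi-likelihood test (0.0% called), while 1347 (7.79%) passed p under 0.05 before adjustment, 559 upward in KI (3.23%) and 788 downward (4.56%). DESeq2 called 139 genes (0.804%), edgeR's likelihood ratio test 42 (0.243%) and limma-voom 0 (0.0%). Markers of microglia summed to between 32500 and 38400 CPM in every library.

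Promoters of 5 of the genes are shown with their matches to searched motifs, which do not by themselves separate the sets. Cenpe is shown as the gene that prompted the selection, and Prc1, Mki67, Rrm2 and Mcm3 as those that followed the mean level of their own phase most closely over the 8 libraries. Each window runs from 250 bases before to 50 bases after a RefSeq start site on GRCm38.p6, 5′ to 3′ on the gene's strand. The windows are chr3:135212313-135212612 on the plus strand for Cenpe, chr7:80294201-80294500 plus for Prc1, chr7:135716330-135716629 minus for Mki67, chr12:24708004-24708303 plus for Rrm2 and chr1:20820263-20820562 minus for Mcm3. Capitals mark matches, on either strand, to E2F letters (TTGGCGC or its variants TTGCCGC and, further, TTCGCGC and also TTCCCGC), to the cell cycle homology region or CHR (TTTGAA or the like TTTAAA) that MuvB complexes bind, and to the CCAAT box, which NF-Y binds. A reverse CCAAT match can share letters with TTGGCGC.
Cenpe: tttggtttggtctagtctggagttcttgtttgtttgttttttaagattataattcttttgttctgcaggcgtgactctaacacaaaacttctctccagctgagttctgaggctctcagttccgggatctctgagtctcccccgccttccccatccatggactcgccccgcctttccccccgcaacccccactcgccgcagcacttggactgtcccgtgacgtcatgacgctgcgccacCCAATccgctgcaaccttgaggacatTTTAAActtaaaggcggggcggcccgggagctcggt
Prc1: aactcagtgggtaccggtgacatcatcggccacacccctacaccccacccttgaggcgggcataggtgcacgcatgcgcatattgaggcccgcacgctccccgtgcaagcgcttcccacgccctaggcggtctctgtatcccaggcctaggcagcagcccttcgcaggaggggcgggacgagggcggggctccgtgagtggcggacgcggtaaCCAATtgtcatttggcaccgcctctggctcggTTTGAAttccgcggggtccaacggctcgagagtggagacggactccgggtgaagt
Mki67: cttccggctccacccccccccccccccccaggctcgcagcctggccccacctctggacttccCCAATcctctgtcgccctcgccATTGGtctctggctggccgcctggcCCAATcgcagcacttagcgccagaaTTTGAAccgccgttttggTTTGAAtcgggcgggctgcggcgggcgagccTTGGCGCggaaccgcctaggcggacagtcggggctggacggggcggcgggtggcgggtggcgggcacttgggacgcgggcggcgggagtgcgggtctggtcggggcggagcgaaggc
Rrm2: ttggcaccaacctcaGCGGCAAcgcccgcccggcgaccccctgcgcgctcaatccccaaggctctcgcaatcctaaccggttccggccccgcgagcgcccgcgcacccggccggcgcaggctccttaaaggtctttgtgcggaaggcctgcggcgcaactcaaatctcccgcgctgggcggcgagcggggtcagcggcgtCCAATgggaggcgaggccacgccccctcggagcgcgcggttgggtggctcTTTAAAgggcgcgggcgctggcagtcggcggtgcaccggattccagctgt
Mcm3: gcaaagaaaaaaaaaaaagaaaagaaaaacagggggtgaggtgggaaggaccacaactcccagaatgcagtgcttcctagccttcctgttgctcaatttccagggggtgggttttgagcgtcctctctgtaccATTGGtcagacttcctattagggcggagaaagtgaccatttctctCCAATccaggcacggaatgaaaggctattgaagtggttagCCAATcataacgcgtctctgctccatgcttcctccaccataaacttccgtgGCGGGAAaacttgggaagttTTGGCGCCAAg
The Cenpe window held 1 CCAAT and 1 CHR match and no E2F match. Prc1 likewise held 1 CCAAT and 1 CHR match, while Mki67 held 2 CHR, 3 CCAAT and 1 E2F match. In Mcm3 there were 3 E2F and 3 CCAAT matches and no CHR, and Rrm2 held 1 of each kind. Of the E2F matches in Mcm3, 2 overlap in 1 stretch of letters, 1 on each strand.

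Over all members, RefSeq windows were found for 36 of the 42 genes (41 windows). Mcm4, Gins2, Ccne2, Ccna2, Aurkb and Tpx2 had none in the table. E2F letters occurred in 12 of 19 S-phase windows (63.2%) and 3 of 22 mitosis windows (13.6%), against 9.57% of all 32851 promoter windows. CHR letters occurred in 8 S-phase windows (42.1%) and 20 mitosis windows (90.9%), against 27.6% of all windows. A CCAAT box was present in 73.7% of S-phase and 81.8% of mitosis windows, against 37.4%. A CHR and a CCAAT box stood together in 6 S-phase windows (31.6%) and 17 mitosis windows (77.3%), against 10.7% of all. Nuf2 held none of the searched motifs, and neither did Tyms. These matches are descriptions of letters in the windows, and Dnmt1, Mcm7, Uhrf1 and Prc1 have more than 1 window.

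**Figure D1:**
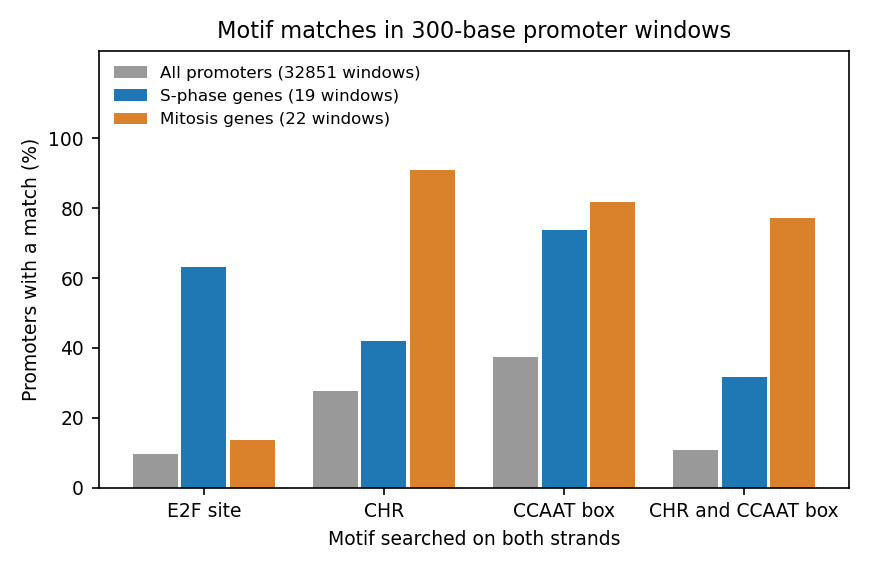
Bars give the percentage of 300-base promoter windows (vertical axis) that hold each searched motif (horizontal axis) for all windows in the RefSeq table, the S-phase genes and the mitosis genes. E2F letters are in 63.2% of the S-phase windows and CHR letters in 90.9% of the mitosis windows.

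Per exon length, the S-phase genes were the more abundant set. Deposited FPKM values, which divide by exon length, had a median of 2.54 over the 18 S-phase genes and 0.798 over the 24 mitosis genes, against 3.45 over the 17015 tested genes that the table lists. The highest levels were those of Pcna, the sliding clamp of DNA polymerases, at 22.5 FPKM on average and of Mcm3 at 18.3 FPKM, followed by Mcm4 (7.61 FPKM), Tyms (7.43 FPKM), Mcm6 (7.18 FPKM) and Rrm1 (5.36 FPKM). Ccnb2 led the mitosis genes at 4.29 FPKM. At the low end were Cdc6 at 0.246 FPKM, Uhrf1 at 0.218 FPKM and Kif23 at 0.177 FPKM, with Cenpe at 0.592 FPKM. In all, 6 S-phase genes and 0 mitosis genes averaged 5 FPKM or more, and 4 S-phase genes and 15 mitosis genes were under 1 FPKM.

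Values by library are given for WT 503, 504, 506 and 527 and then for KI 513, 526, 528 and 549, always in that order. Fold changes on the log2 scale put KI over WT and come with their standard error (SE) and 95% interval. Cenpe, a kinesin that links kinetochores to microtubules (chromosome 3, 135212537 to 135273611, plus strand, mm10), was at 1.45, 3.18, 2.96 and 2.7 CPM in WT and 10.4, 6.63, 7.30 and 5.44 CPM in KI. The groups did not overlap, the lowest KI library lying above the highest WT library. The means were 2.57 ± 0.775 CPM in WT and 7.45 ± 2.12 CPM in KI (SD, n = 4 each), 2.90-fold apart, with a log2 fold change of 1.53 (SE 0.313, 0.84 to 2.23). Of the 42 genes, Cenpe was the 1 whose groups did not overlap; over all genes tested 4.94% were separated so, 2.34% with KI above WT. Leaving out any 1 library kept the fold change between 1.33 and 1.66, and on the log2(FPKM + 1) scale, which shrinks low values, it was 0.52.

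In the whole set, 32 of the 42 log2 fold changes were above 0 (76.2%) and the median was 0.29, against 50.1% and a median of 0.00 over all genes tested. Without KI 513 the count was 24. The 18 S-phase genes had 12 above 0 and a median of 0.11, and the 24 mitosis genes had 20 above 0 and a median of 0.47. Without KI 513 those medians were 0.01 and 0.29. Before adjustment, 4 genes had a p under 0.05 with KI higher (Mcm4, Cenpe, Spc25 and Nuf2) and 0 with KI lower, set against 7.79% of all genes in either direction; as the contrast chose the genes, nothing is read from that count.

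**Figure D2:**
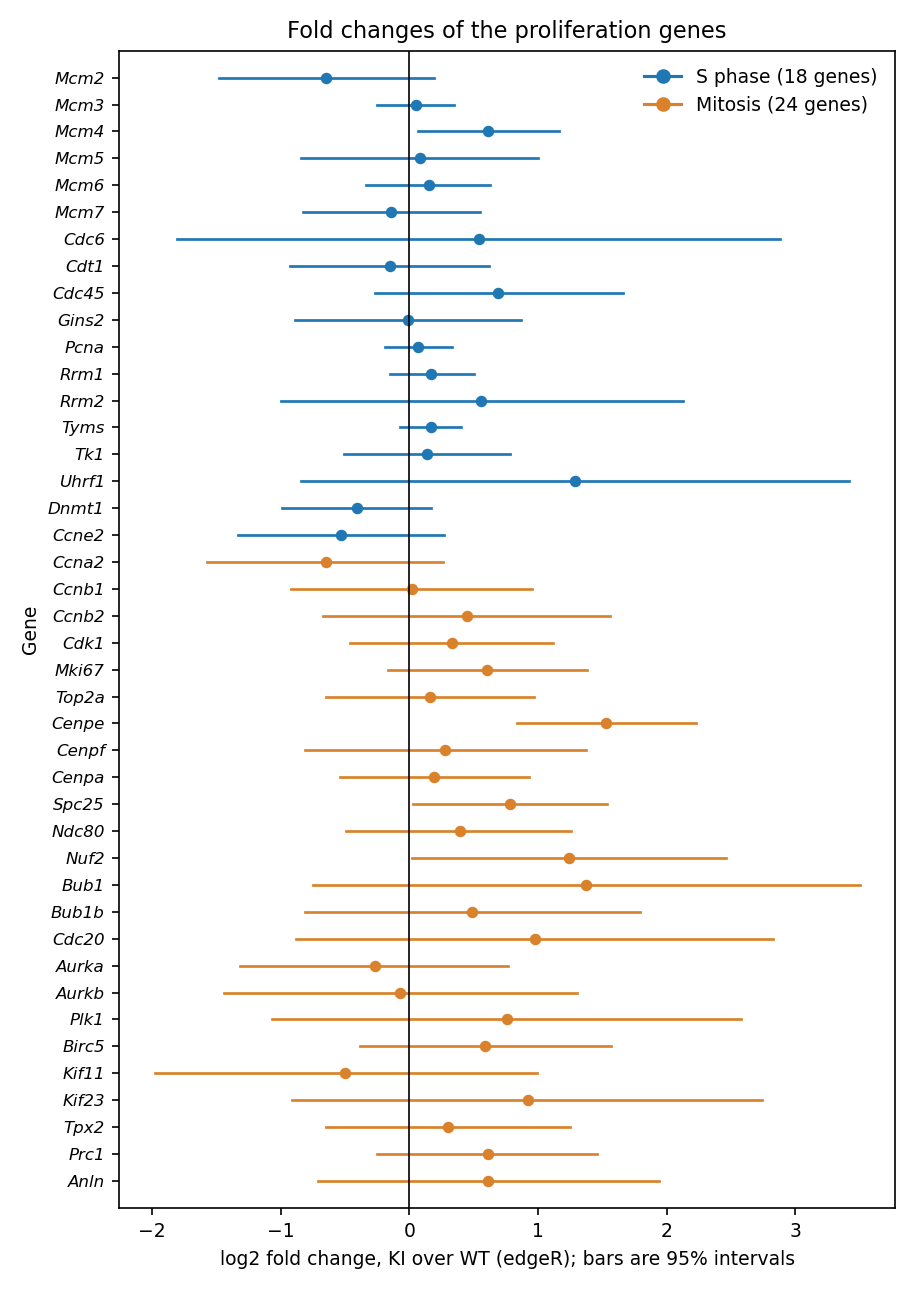
Points are the log2 fold changes of the 42 genes, KI over WT (horizontal axis), and bars their 95% intervals, with 4 libraries in each group. Cenpe has a fold change of 1.53, and 4 intervals lie above 0 (Mcm4, Cenpe, Spc25 and Nuf2) while the others include it. The intervals are not adjusted for the number of genes, and the edgeR adjusted p of these 4 ran from 0.507 to 0.635. Of all genes tested, 7.79% had an unadjusted edgeR p under 0.05. As the contrast chose the genes, nothing is read from the count.

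The 6 MCM genes encode the ring-shaped helicase that opens the DNA. Mcm2 was at 10.7, 8.05, 3.43 and 8.09 CPM in WT and 7.02, 2.68, 4.79 and 4.82 CPM in KI, with a log2 fold change of -0.65 (SE 0.376, -1.48 to 0.19). Mcm4 was at 16.8, 13.6, 19.7 and 31.9 CPM in WT and 38.0, 29.2, 32.7 and 25.6 CPM in KI, with a log2 fold change of 0.61 (SE 0.247, 0.07 to 1.16). Mcm6 was at 36.4, 22.4, 30.1 and 33.0 CPM in WT and 30.1, 48.1, 24.2 and 32.5 CPM in KI, a log2 fold change of 0.15. Although their products form 1 ring, the genes did not share a direction: WT 527 alone among WT libraries reached the KI range for Mcm4, whereas Mcm2 was highest in WT 503. The WT and KI means were 64.0 ± 10.2 and 66.2 ± 7.74 CPM for Mcm3, 9.51 ± 2.83 and 10.1 ± 5.43 CPM for Mcm5 and 12.4 ± 5.48 and 11.2 ± 3.64 CPM for Mcm7. Their log2 fold changes lay between -0.14 and 0.08, and those of the 6 genes had a median of 0.07.

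Among licensing and fork genes, Cdc6, which loads the helicase, was at 1.96, 0.0644, 2 and 0.0198 CPM in WT and 1.23, 1.56, 2.11 and 0.965 CPM in KI. In WT 504 and WT 527 these values rest on 3 reads and 1 read, under that limit, while the other 6 libraries held 52 to 107 reads; the log2 fold change was 0.54 (SE 1.05, -1.81 to 2.88). Cdc45, a subunit of the active helicase, was at 2.16, 1.59, 0.987 and 2.78 CPM in WT and 1.85, 5.18, 2.66 and 2.47 CPM in KI, and only KI 526 stood above the WT range. Pcna was at 52.4, 53.7, 43.1 and 45.6 CPM in WT and 56.3, 43.2, 52.8 and 52.1 CPM in KI, a log2 fold change of 0.07 (SE 0.115, -0.19 to 0.33). That interval is among the narrowest of the set. Cdt1, the other helicase loader, averaged 7.81 ± 3.56 CPM in WT and 7.03 ± 1.73 in KI. Gins2, a further helicase subunit, averaged 4.96 ± 1.08 and 4.92 ± 2.47 CPM, but exons of Gse1 on the opposite strand cover 67.3% of its exon bases, so its unstranded count is uncertain.

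The genes of nucleotide supply all had fold changes above 0, from 0.14 to 0.56 on the log2 scale. Rrm1, the large subunit of ribonucleotide reductase, was at 69.3, 47.7, 47.7 and 53.7 CPM in WT and 74.2, 53.4, 60.0 and 58.4 CPM in KI. Rrm2, its small subunit and the one made in S phase, was at 4.61, 0.601, 4.68 and 7.20 CPM in WT and 13.1, 7.10, 2.02 and 3.08 CPM in KI. The thymidylate synthase gene Tyms was at 39.3, 43.3, 42.3 and 40.4 CPM in WT and 50, 51.2, 45 and 39.5 CPM in KI. For Tyms 3 of 4 KI libraries lay above the WT range, with a log2 fold change of 0.17 (SE 0.106, -0.07 to 0.40). Rrm1 had the same fold change of 0.17 (SE 0.146, -0.15 to 0.50). Rrm2 was lowest in WT 504 and highest in KI 513, and its fold change of 0.56 (SE 0.703, -1.0 to 2.13) became -0.07 without KI 513. The thymidine kinase gene Tk1 averaged 7.85 ± 2.78 CPM in WT and 8.61 ± 2.28 in KI.

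DNA methylation is copied onto new strands by DNMT1, which UHRF1 recruits, yet both genes took different courses. Uhrf1 was at 0.476, 0.429, 0.625 and 0.536 CPM in WT and 4.20, 0.170, 0.466 and 0.241 CPM in KI. Its log2 fold change of 1.29 (SE 0.958, -0.84 to 3.42) was -0.82 without KI 513, the high library. Dnmt1 was at 13.5, 13.1, 15.0 and 17.2 CPM in WT and 5.81, 11.1, 15.2 and 12.1 CPM in KI, lowest in the library where Uhrf1 was highest, with a log2 fold change of -0.41 (SE 0.261, -0.99 to 0.17). Ccne2, the cyclin E gene of S-phase entry, was at 19.8, 11.9, 6.13 and 11.6 CPM in WT and 8.74, 13.1, 6.66 and 5.75 CPM in KI. Its log2 fold change was -0.53 (SE 0.360, -1.33 to 0.27), and exons of Ints8 on the opposite strand cover 17.4% of its exon bases.

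Of the mitotic cyclins and their kinase, Ccna2 (cyclin A2) was at 2.76, 2.90, 3.18 and 2.64 CPM in WT and 0.827, 1.64, 1.55 and 3.27 CPM in KI, a log2 fold change of -0.65 (SE 0.412, -1.57 to 0.26). Ccnb2 (cyclin B2) was at 10.9, 3.03, 3.67 and 1.84 CPM in WT and 9.16, 5.03, 4.75 and 7.65 CPM in KI, a log2 fold change of 0.45 (SE 0.502, -0.67 to 1.56). Cdk1, the kinase both cyclins activate, was at 10.2, 6.25, 3.43 and 5.06 CPM in WT and 6.81, 12.1, 6.59 and 5.86 CPM in KI, a log2 fold change of 0.33 (SE 0.356, -0.46 to 1.12). WT 503 was the highest WT library for Ccnb2 and Cdk1, and the groups overlapped for all 3 genes. Ccnb1 (cyclin B1) averaged 3.21 ± 1.43 CPM in WT and 3.25 ± 1.22 in KI.

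The chromosome genes shared some of their high libraries. Mki67, which coats mitotic chromosomes and is the common marker of cycling cells, was at 11, 3.5, 7.48 and 4.90 CPM in WT and 11.5, 9.21, 6.99 and 13.1 CPM in KI. Top2a, which untangles DNA, was at 21.4, 9.15, 10.8 and 11.6 CPM in WT and 26.1, 11.9, 9.10 and 12 CPM in KI. WT 503 and KI 513 were high for both, and KI 549 was high for Mki67. The log2 fold changes were 0.60 (SE 0.348, -0.17 to 1.38) for Mki67 and 0.16 (SE 0.364, -0.65 to 0.97) for Top2a.

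All 6 centromere and kinetochore genes had fold changes above 0, with a median of 0.58 on the log2 scale. Spc25, a subunit of the NDC80 complex that grips microtubules, was at 8.93, 4.66, 2.68 and 3.95 CPM in WT and 7.55, 9.74, 7.68 and 9.83 CPM in KI, a log2 fold change of 0.78 (SE 0.340, 0.03 to 1.54). Nuf2, of the same complex, was at 1.15, 0.494, 2.52 and 2.12 CPM in WT and 4.67, 4.65, 4.17 and 1.35 CPM in KI, a log2 fold change of 1.24 (SE 0.547, 0.02 to 2.46). In each of these genes 1 library made the groups overlap, WT 503 for Spc25 and KI 549 for Nuf2. The WT and KI means of the other 3 were 2.67 ± 0.772 and 3.49 ± 1.5 CPM for Ndc80, 5.41 ± 3.40 and 6.57 ± 2.95 CPM for Cenpf, a large kinetochore protein, and 4.22 ± 1.12 and 4.82 ± 2.04 CPM for Cenpa, the centromeric histone.

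The 3 checkpoint and exit genes had a median log2 fold change of 0.98 and wide ranges between libraries. Bub1, a checkpoint kinase, was at 1.83, 0.193, 0.927 and 0.655 CPM in WT and 2.32, 4.96, 0.0666 and 2 CPM in KI, the KI 528 value resting on 3 reads, under the limit. Bub1b, which holds back chromosome separation, was at 2.36, 2.17, 1.89 and 3.73 CPM in WT and 6.75, 4.69, 2.13 and 0.687 CPM in KI. Cdc20, the activator that the checkpoint restrains, was at 7.41, 0.0859, 2.08 and 1.53 CPM in WT and 8.31, 4.45, 4.37 and 4.79 CPM in KI, with 4 reads in WT 504, also under it. KI 513 was high for all 3 and WT 503 for Bub1 and Cdc20, and the groups overlapped throughout. The log2 fold changes were 1.37 (SE 0.955, -0.75 to 3.5) for Bub1, 0.49 (SE 0.583, -0.81 to 1.79) for Bub1b and 0.98 (SE 0.833, -0.88 to 2.83) for Cdc20. Without KI 513 that of Bub1b was -0.02.

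Among mitotic kinases and the chromosomal passenger complex, Aurka, the kinase of the spindle poles, was at 6.85, 2.71, 3.22 and 2.72 CPM in WT and 1.27, 5.22, 2.49 and 3.84 CPM in KI. Plk1, a kinase that acts throughout mitosis, was at 0.732, 1.31, 1.13 and 2.60 CPM in WT and 5.94, 0.151, 2.11 and 1.56 CPM in KI. Birc5 (survivin), a passenger subunit, was at 2.75, 0.859, 2.38 and 1.86 CPM in WT and 4.25, 2.13, 1.78 and 3.69 CPM in KI. The libraries ranked differently for each: KI 513 was the highest for Plk1 and Birc5 and the lowest for Aurka. The log2 fold changes were -0.27 (SE 0.469, -1.32 to 0.77) for Aurka, 0.76 (SE 0.821, -1.07 to 2.58) for Plk1 and 0.59 (SE 0.439, -0.38 to 1.57) for Birc5. That of Plk1 was -0.18 without KI 513. Aurkb, the passenger kinase, averaged 3.08 ± 2.18 CPM in WT and 2.94 ± 2.23 in KI.

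The spindle motors and cytokinesis genes had fold changes above 0 in 4 of 5 cases. Kif23, a motor of the midbody, was at 0.476, 1.07, 0.584 and 1.65 CPM in WT and 4.42, 1.51, 0.155 and 1.06 CPM in KI. Prc1, which bundles the central spindle, was at 5.73, 2.43, 3.45 and 6.35 CPM in WT and 10.9, 6.2, 3.84 and 6.38 CPM in KI. Anln (anillin), a scaffold of the contractile ring, was at 5.18, 4.25, 0.826 and 2.52 CPM in WT and 3.73, 10.1, 3.75 and 2.02 CPM in KI. A single KI library, KI 513 for Kif23 and Prc1 and KI 526 for Anln, stood far above the WT libraries, and the others overlapped them. The log2 fold changes were 0.92 (SE 0.820, -0.91 to 2.74) for Kif23, 0.61 (SE 0.385, -0.25 to 1.46) for Prc1 and 0.61 (SE 0.596, -0.71 to 1.94) for Anln. Without KI 513 that of Kif23 was -0.06, and without KI 526 that of Anln was -0.02. For Kif11, the motor that pushes spindle poles apart, the WT and KI means were 6 ± 5.66 and 4.26 ± 3.05 CPM, and for Tpx2, a spindle assembly factor, 6.15 ± 2.82 and 7.56 ± 3.70 CPM. WT 503 held 14.3 CPM of Kif11, and without it the log2 fold change of -0.50 was 0.39.

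**Figure D3:**
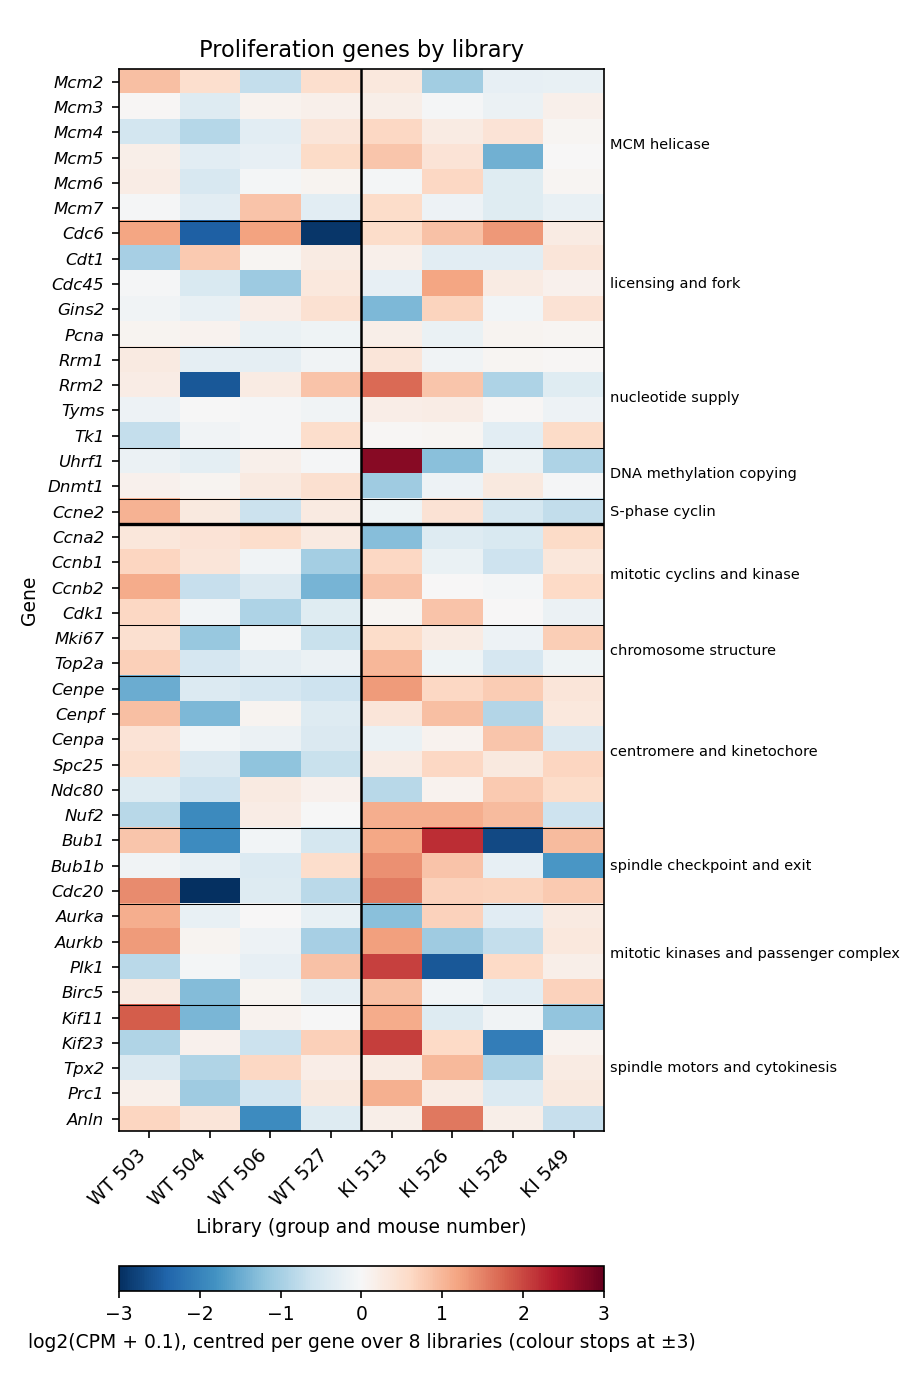
Colours give the level of each gene (rows, grouped by role) in each library (columns), as log2(CPM + 0.1) centred on the gene's mean over the 8 libraries. KI 513 is the highest library for 16 of the 42 genes and WT 504 the lowest for 11.

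Extremes fell unevenly over the libraries. KI 513 held the highest value of 16 of the 42 genes, WT 503 and KI 526 of 8 each, and WT 504, WT 506 and WT 527 of 1 each. The lowest value was in WT 504 for 11 genes. Within groups the genes varied more than most: the median SD of log2 CPM was 0.540 for S-phase and 0.750 for mitosis genes, against 0.328 for all genes tested. The median levels behind these figures were 10.1, 4.09 and 9.55 CPM, and lower counts vary more; how much of the spread the level accounts for was not tested.

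To ask whether the 2 sets moved together, each gene's log2 CPM was centred on its mean over the 8 libraries and averaged over the genes of a phase. The S-phase level was 0.097, -0.413, -0.016 and 0.030 in WT and 0.329, 0.130, -0.131 and -0.025 in KI. The mitosis level was 0.356, -0.733, -0.251 and -0.238 in WT and 0.664, 0.322, -0.257 and 0.137 in KI. WT 504 was the lowest and KI 513 the highest library on both, and WT 503 stood with the KI libraries 513 and 526 at the upper end. The group means were -0.076 ± 0.230 in WT and 0.076 ± 0.200 in KI for S phase, 0.151 apart, and -0.216 ± 0.446 and 0.216 ± 0.384 for mitosis, 0.433 apart, with overlap in both. The summed levels ran from 305 to 414 CPM for the S-phase genes and from 67.5 to 164 CPM for the mitosis genes.

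Over the 8 libraries the S-phase and mitosis levels had a Pearson r of 0.92 and a Spearman rho of 0.90, and on deviations from the group means r was again 0.92 and rho 0.90, so the relation was present within the groups. Leaving out any 1 library gave r from 0.87 to 0.96. Without KI 513 and WT 504, the libraries farthest from the median S-phase level, r was 0.74 and rho 0.77 (n = 6). These values describe 8 libraries that share their normalization, and no p is given because the genes were chosen. The size of r depended on how the level was made: it was 0.55 with the median over the genes, 0.58 with genes of at least 5 CPM alone, 0.66 on log2(FPKM + 1) and 0.78 with each gene scaled to the same SD. Each of these settings gives less weight to genes of low count or wide range than the mean of log2 CPM does. Whether that lowers r was not tested.

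**Figure D4:**
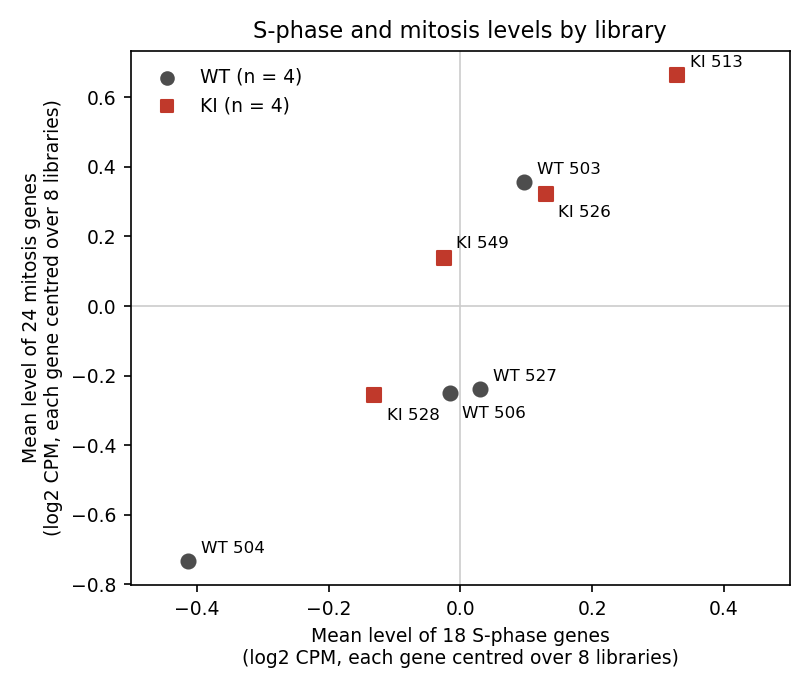
Each point is 1 library, placed by the mean level of the 18 S-phase genes (horizontal axis) and of the 24 mitosis genes (vertical axis), both in log2 CPM with each gene centred over the 8 libraries. WT 504 lies at the lower left, KI 513 at the upper right, and WT and KI libraries overlap on both axes.

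Gene by gene, the movement was looser. Pairs of an S-phase and a mitosis gene had a median r of 0.16 over the 8 libraries, with 63.0% of 432 pairs above 0 and 6.94% at 0.7 or more. Pairs of mitosis genes had a median r of 0.22 (276 pairs, 71.0% above 0, 7.97% at 0.7 or more). Pairs of S-phase genes had a median r of 0.01, with 52.3% of 153 pairs above 0 and 1.31% at 0.7 or more. For all pairs of tested genes the median was 0.00, with 49.7% above 0 and 3.04% at 0.7 or more. The S-phase genes thus followed one another about as much as any pair of genes did.

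A gene was compared with the mean level of its own phase computed without that gene. Of the S-phase genes, Rrm2 (r = 0.92) and Mcm3 (r = 0.79) reached 0.7, which is 2 of 18, and the median was 0.11. Of the mitosis genes 8 of 24 reached it, Prc1 (0.88), Mki67 (0.86), Birc5 (0.84), Cenpf (0.83), Top2a (0.82), Cdc20 (0.80), Ccnb2 (0.73) and Bub1 (0.70), and the median was 0.45. Of all genes tested, 3.08% reached 0.7 with the S-phase level and 3.13% with the mitosis level. Rrm1 followed the mitosis level (r = 0.80) more than that of its own phase (r = 0.64). Of the 9 genes with a negative r with both levels, those farthest from 0 were Dnmt1 (r = -0.66 with S phase and -0.70 with mitosis), Cdt1 (-0.56 and -0.51), Ccna2 (-0.57 and -0.61) and Gins2 (-0.42 and -0.32). The other 5, Ndc80, Mcm2, Cenpa, Aurka and Tk1, had values between -0.29 and -0.02.

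Cenpe did not follow the other mitosis genes. Its r with the mitosis level was 0.25 over the 8 libraries and -0.38 on deviations from the group means, and with the S-phase level 0.29 and -0.10. WT 503, among the highest libraries on the mitosis level, held the lowest Cenpe value. KI 528, low on that level, held 7.30 CPM of Cenpe. Of the other kinetochore genes, within-group r with the mitosis level was 0.86 for Cenpf, 0.38 for Spc25, 0.23 for Nuf2, -0.17 for Cenpa and -0.51 for Ndc80. A negative value was therefore not particular to Cenpe, and Ccna2 (-0.41) and Plk1 (-0.19) had one too.

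**Figure D5:**
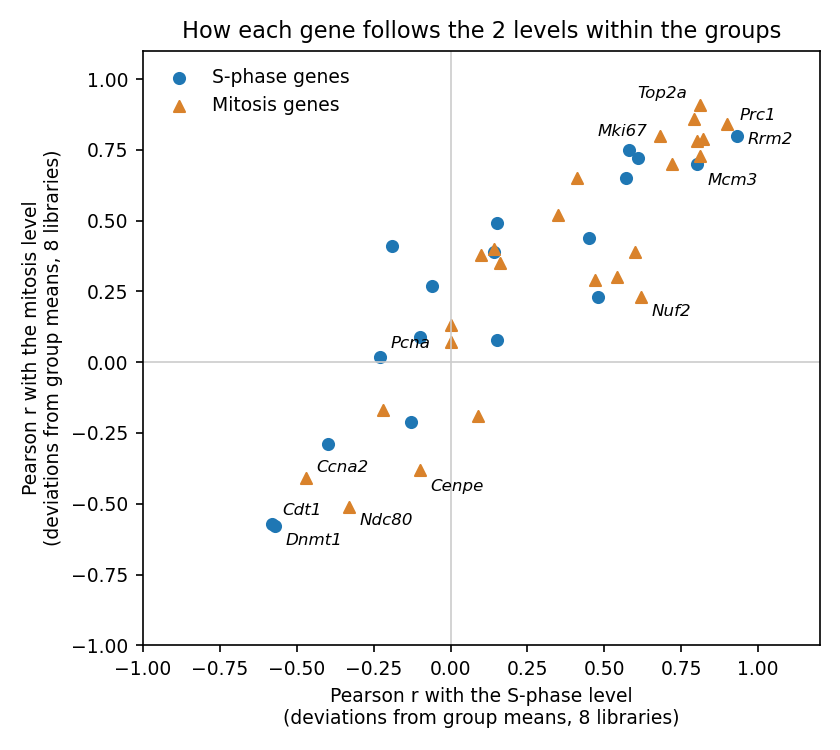
Each point is 1 gene, placed by its Pearson r with the S-phase level (horizontal axis) and with the mitosis level (vertical axis), on deviations from the group means over 8 libraries, the gene being left out of its own level. Top2a, Prc1 and Rrm2 lie at the upper right, and Cenpe, Cdt1, Dnmt1 and Ccna2 below 0 on both axes.

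Marker lists of other cells overlapped between the groups. Of the 8 monocyte markers 5 passed the filter, and the sum of all 8 ran from 7.39 to 14.3 CPM in WT and from 7.73 to 28.6 CPM in KI, with Ccr2, Fn1 and F13a1 detected and S100a4 at 0 to 2 reads. The 7 neutrophil markers (2 passed), which include genes of maturing marrow cells such as Ngp and Camp, ran from 0.218 to 19.7 CPM in WT and from 0.186 to 57.6 CPM in KI, highest in KI 528, WT 504 and KI 513. WT 504 and KI 513 are the extremes of the proliferation levels in opposite directions. Of the 7 myeloid progenitor markers only Cd34 passed, with means of 876 ± 63.6 CPM (WT) and 855 ± 47.9 CPM (KI), and Mpo did not exceed 15 reads, Elane 22 and Prtn3 2 in any library. The 6 erythroid markers, all of which passed, summed to 160 to 524 CPM in WT and 96.6 to 307 CPM in KI. Hbb-bs, Hba-a2 and Alas2 had log2 fold changes of -1.06, -0.96 and -0.67 and a p under 0.05 before adjustment, and none of the list did after adjustment by edgeR. The summed list had r of -0.43 with the S-phase level and -0.67 with the mitosis level. The summed microglia markers had r of -0.73 with the S-phase level and -0.80 with the mitosis level over the 8 libraries. By their mean level these were -0.60 and -0.66. The immediate early and stress genes had a mean level from -1.115 in WT 504 to 0.636 in KI 513 (r = 0.57 and 0.46). By their sum r was 0.40 and 0.26. Over the 12 marker lists r of the sum with the mitosis level ran from -0.80 (microglia) to 0.28 (neuron), with the same -0.80 for the myeloid progenitor sum, nearly all of it Cd34. By the mean level it ran from -0.80 (myeloid progenitor) to 0.44 (neuron and astrocyte). The part of these cells and genes in the results was not tested.

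Of 186 other genes of replication, cell cycle control and mitosis, in 8 lists, 180 were tested and none had an adjusted p under 0.05. Before adjustment 5 had a p under 0.05 with KI higher and 6 with KI lower, together 6.11% against 7.79% of all genes, and 124 fold changes were above 0 with a median of 0.09. Cohesin and condensin genes had fold changes above 0 in 19 of 20 cases (median 0.14), and replication polymerase and fork genes in 25 of 32 (median 0.17). In the lists of origin firing (10 of 15, median 0.07), E2F, RB and G1 control (15 of 24, median 0.08), arrest genes (6 of 10, median 0.10), other kinetochore genes (21 of 33, median 0.06), spindle and cytokinesis (16 of 25, median 0.16) and the anaphase-promoting complex (12 of 21, median 0.02) the share ran from 57.1% to 66.7%, against 50.1% of all genes.

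None of the 11 genes at an unadjusted p under 0.05 reached the threshold after adjustment (edgeR adjusted p from 0.507 to 0.626). Wapl, which releases cohesin from DNA, was at 224 ± 18.7 CPM in WT and 276 ± 21.4 in KI, and Cdk6, a G1 kinase, at 95.1 ± 7.69 and 113 ± 5.06 CPM, both without overlap. Anapc2, a core subunit of the anaphase-promoting complex, was at 120 ± 5.51 CPM in WT and 92.1 ± 9.21 in KI, and Pold2, a subunit of DNA polymerase delta, at 27.1 ± 3.21 and 20.8 ± 0.881 CPM. Dbf4, which activates the origin-firing kinase, averaged 9.72 ± 2.13 CPM against 5.15 ± 2.07 CPM in KI, and Cdkn2b, a CDK inhibitor gene, averaged 2.04 ± 0.647 against 0.339 ± 0.459 CPM. The Cdkn2b values of KI 513 and KI 549 rest on 0 and 3 reads, under the limit of 6 reads. KI lay below WT in every library for Anapc2, Pold2, Dbf4 and Cdkn2b. The 6 pathway genes without overlap are 3.33% of the 180, against 4.94% of all genes. The others had overlapping groups: Fzr1, an activator of the anaphase-promoting complex (log2 fold change -0.72), Ccnd1, cyclin D1 (-0.33), Tipin, a fork protection factor (0.37), Zwilch, a kinetochore protein (1.06), and Melk, a mitotic kinase (1.42).

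These genes entered neither level, and some followed them. Within the groups, 20 of the 180 (11.1%) had r of 0.7 or more with the mitosis level, against 4.24% of all genes, and 14 (7.78%) with the S-phase level, against 4.41%. Over the 8 libraries without removing the group means, the counts were 14 (7.78%, against 3.13% of all genes) and 16 (8.89%, against 3.08%). The spindle and cytokinesis list held 8 of the 20 among its 25 genes within the groups (32.0%, median r 0.40) but 3 (12%) over the 8 libraries, and origin recognition and firing held 0 of 15 by either measure (median r within the groups 0.12). The highest values of the spindle list, named after they were seen, were those of Cep55, which acts in the final cut between daughter cells (r = 0.91), Ckap2l, a spindle protein (0.85), and Kif2c, a microtubule-removing kinesin (0.81). Cep55 was at 2.75, 0.0429, 0.0806 and 0.476 CPM in WT and 5.09, 2.49, 0.133 and 2.89 CPM in KI, high in the libraries where the mitosis level was high and at or under the limit of 6 reads in WT 504, WT 506 and KI 528.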

How the data were processed

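RNA-seq counts and FPKM of 4 WT and 4 KI libraries were used, grouped by the labels. Counts were deposited as whole reads per gene which, per the file headers, featureCounts 2.0.3 summed over exons from primary alignments without chimeric pairs and without regard to strand, and both reads of a pair can be counted (68.9% to 70.8% of counts from 1 to 9 were even). The submitters' processing notes also name STAR 2.7.5c, SAMtools 1.9, R 3.6.0, edgeR, limma and mm10. The exon lengths come from the same deposited table. The deposited FPKM values have no tool given in the sources used here; from the values, the authors' FPKM is the count per library total and per exon length less 187.4 to 190.5 bases. Of 54532 genes, 54495 were paired with a symbol, 98.33% of them with the same start and end in the annotation. The count table holds 8 further columns that match no label and were not used.

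Counts were fitted with edgeR 4.0.16 in R 4.3.3 (TMM, filterByExpr with minimum count 10 and minimum total 15, robust quasi-likelihood, genotype as the only term), with Benjamini-Hochberg adjustment over 17291 genes and a threshold of 0.05. On simulated data (16626 genes tested) 80% of genes changed by log2 1 and 70% by log2 -1 were recovered. The changed genes were drawn from those averaging at least 5 CPM. The mitosis genes had a median of 4.09 CPM, and recovery below 5 CPM was not simulated. Within groups, the median SD of log2 CPM was 0.54 for S-phase and 0.75 for mitosis genes, against 0.328 for all genes tested. Recovery was not split by spread, so these percentages do not say how often such a change would be called in genes that vary this much. DESeq2 1.42.0, limma 3.58.1, other scalings, filters and pseudocounts, and leaving out each library were alternatives. Phase levels used log2 CPM with a prior count of 2. Levels by library were given for up to 3 genes per role with the smallest unadjusted p, and other genes by their means; of each pathway list, up to 3 genes per direction with an unadjusted p under 0.05 and a mean of at least 1 CPM were named. Of the members, 10 share exon bases with another gene, 5 of them over 10% (Gins2, Ccne2, Mcm7, Ccna2 and Prc1), where reads without strand are uncertain. Intervals cover the spread between mice, 1 library each; the limit of 3 fragments (6 reads) covers counting error only. Members and lists were chosen with earlier results of these data known. Promoter letters are from RefSeq (GRCm38.p6).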

Additional observations from a re-analysis of the deposited data

Results flagged for a closer look

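In groups of 4 libraries, 8 of 110 combinations (106 of a gene and a group, 4 of a phase level and a group), 7 of them among the 42 genes and 0 among the levels, had a library whose gap to its nearest neighbour exceeded Dixon's 95% critical value as a share of the group's range. For normally distributed values chance gives about 1 in 20. Genes were checked in CPM, and whether CPM values are so distributed was not tested. Among WT libraries, WT 506 held 20.5 CPM of the helicase gene Mcm7 while the others held 8.97 to 10.9 CPM, and WT 503 held 6.85 CPM of the spindle pole kinase gene Aurka beside 2.71 to 3.22 CPM. KI 513 stood above the other KI libraries for 3 genes: Uhrf1 at 4.20 CPM (0.170 to 0.466 in the others), Top2a at 26.1 CPM (9.10 to 12) and Cdc20 at 8.31 CPM (4.37 to 4.79). KI 526 held 12.1 CPM of Cdk1 (5.86 to 6.81 in the others) and 19.5 CPM of the polymerase subunit gene Pold2 (21.1 to 21.4), and KI 549 held 1.35 CPM of Nuf2 (4.17 to 4.67).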

How the results depend on the processing

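The count of genes called over all 17291 was 0 with edgeR's quasi-likelihood test under each library left out, 139 with DESeq2 (33 higher, 106 lower), 42 with edgeR's likelihood ratio test (8 higher, 34 lower) and 1 on log2(FPKM + 1). Of the other pathway genes DESeq2 called 1, Anapc2 (adjusted p 0.0106). The cause of these differences between tools was not tested. The r between the phase levels was 0.55 with medians over genes, 0.58 with genes of at least 5 CPM, 0.66 on log2(FPKM + 1), 0.78 with genes scaled to SD 1 and 0.81 on log2(FPKM + 0.1). These settings give less weight to genes of low count or wide range, and whether that lowers r was not tested. With 1 library left out it ran from 0.87 to 0.96, the S-phase median fold change from 0.01 to 0.18, the mitosis median from 0.29 to 0.68, and the number of genes above 0 from 24 (without KI 513) to 34. Of 630 fold changes of the 42 genes under 15 settings, 628 moved by less than the within-group SD of single libraries. Leaving out 1 of 4 libraries can hardly move a group mean by that much, so this count does not measure stability. By sign, 20 genes changed under at least 1 setting, among them Top2a (-0.27 without KI 513), Mcm7 (0.22 without WT 506) and Mcm5 (7 settings). Values of a few reads, as for Cdc6 and Bub1, limit what can be compared. No paired analysis was possible because the groups share no mouse number.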
